A study of Mus musculus with 12 samples.

Results

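ABC transporters are membrane pumps that bind and hydrolyse ATP to move lipids, bile constituents, drugs, metals or peptides across a membrane. The genes examined here are the 49 of 37141 gene rows in the deposited table whose symbol is Abc, a subfamily letter from a to g, a number and an optional letter; 1 further gene of subfamily B with a symbol of that form was left out by the rule. The choice used symbols and no measured value. Subfamily A held 16 members, B 9, C 10, D 4, E 1, F 3 and G 6.

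In the hepatocyte, exporters of the canalicular (bile-facing) membrane secrete phospholipid, sterols and conjugates into bile, while exporters of the sinusoidal (blood-facing) membrane return conjugates and lipids to plasma. Half-size transporters of subfamilies B and D serve mitochondria, peroxisomes and lysosomes. Proteins of subfamilies E and F keep the ATP-binding domains but have no membrane-spanning part, and they act in translation and ribosome recycling.

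The study set out to compare hepatocytes with and without YAP and TAZ, the effectors of the Hippo pathway, in resting and in injured liver. RNA came from liver cells sorted as hepatocytes, 500000 per library, in 4 groups of 3 samples, all from mice with floxed alleles of both genes (Yapflox/flox; Tazflox/flox). The group ctrl is labelled as wild type in effect and has no treatment named; ctrl + CCl4 received carbon tetrachloride, a hepatotoxin, at 1 ml/kg in corn oil by the intraperitoneal route 48 hours before collection. In Yap/Taz KO both genes were deleted by Cre recombinase from AAV8.TBG, a viral vector given at 5e+11 genome copies 3 weeks before collection, and in Yap/Taz KO + CCl4 the vector came 3 weeks before the same injury. The labels name no control vector and no oil-only injection, so each effect includes that of its vector or injection, and since TBG is a hepatocyte promoter, other liver cells keep both genes. No age or sex is stated in the sources used here, nor whether each sample is 1 animal.

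Library totals lay between 1617761 and 3028951 counts. All 10 hepatocyte markers (among them Alb, Ttr and Apoa1) had counts in all 12 libraries. Their summed level, in CPM (counts relative to the library's size after edgeR's TMM scaling), was 129000 to 164000 in ctrl, 72700 to 91600 in ctrl + CCl4, 146000 to 174000 in Yap/Taz KO and 106000 to 126000 in Yap/Taz KO + CCl4. By edgeR, 7 of these 10 markers were called lower after injury in ctrl and 2 in the knockouts, and none higher. Over all genes tested 12% were called lower in ctrl and 8.35% in the knockouts. In the knockouts Hnf4a, Ttr and Cps1 were near the threshold (edgeR adjusted p = 0.0506, 0.0705 and 0.0751). No gene was called by edgeR for the difference between the injury responses. The sorted cells also gave RNA of other types: the sum of 10 macrophage and Kupffer cell markers was 441 to 2430 CPM in ctrl, 2310 to 4010 in ctrl + CCl4, 217 to 1000 in Yap/Taz KO and 1800 to 2750 in Yap/Taz KO + CCl4, with every marker counted in every library. Library ctrl replicate 1 stood apart, with 2430 CPM of macrophage markers against 441 and 574 in the other controls, and 1190 CPM of 9 stellate and mesenchymal markers against 279 and 437. It was also the highest control for erythroid (1580 CPM against 19.6 and 154), endothelial (2040 against 522 and 704) and monocyte and neutrophil markers (113 against 23.7 and 32.7). Yap1 averaged 58.0 ± 16.1 CPM in ctrl and 15.6 ± 6.30 in Yap/Taz KO, and 56.6 ± 8.02 and 14.5 ± 0.313 after injury (SD, n = 3 each), with edgeR adjusted p = 0.102 and 0.0995. Yap1 was called lower in both states by DESeq2 (adjusted p = 2e-04 and 4.2e-06) and by edgeR without the low-count filter (1.26e-05 and 6.92e-07). Wwtr1, which encodes TAZ, averaged 38.9 ± 17.1 and 14.7 ± 4.18 CPM before injury and 33.7 ± 1.08 and 23.3 ± 2.97 after it (edgeR adjusted p = 0.235 and 0.983); before injury DESeq2 (0.0301) and edgeR without that filter (0.0129) called it lower. Every knockout library lay below every control of the same injury state for both genes; a tag at the 3' end does not show whether the deleted part is gone.

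Of the 49 members, 34 passed the low-count filter and were tested. Among the other 15, 7 had no count in any library (Abca12, Abca15, Abca16, Abca17, Abcb5, Abcc8 and Abcg4), and Abca4, Abca13, Abca14, Abcb1b, Abcb6, Abcb9, Abcc10 and Abcc12 had counts in some libraries. All 4 members of subfamily D, the single member of E and all 3 of F were tested, against 9 of 16 in A, 5 of 9 in B, 7 of 10 in C and 5 of 6 in G. A count of 0 in a library allows up to 0.915 to 2.13 CPM (3 counts), a limit that covers counting error only.

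Abcg5 and Abcg8 are shown by their sequence because both genes fell in both injury responses and start head to head. Abcg5 (chromosome 17, 84658234 to 84683011, minus strand, GRCm38) and Abcg8 (84676302 to 84700333, plus strand) encode the subunits of the pump that exports cholesterol and plant sterols into bile. In RefSeq (GRCm38.p6) the Abcg5 start and the inner Abcg8 start lie 109 bases apart, at chr17:84683012-84683120. This stretch lies inside the bounds given for Abcg8, which has another start at 84676302. Beside it stand the bases upstream of Abca8a (chr11:110095979-110096128, minus strand) and Abcd3 (chr3:121815303-121815452, minus strand), members that also fell in both responses. Capitals mark the letters GGAATG, the core of sites bound by TEAD, the DNA-binding partners of YAP and TAZ, searched on both strands.
Abcg5-Abcg8, plus strand: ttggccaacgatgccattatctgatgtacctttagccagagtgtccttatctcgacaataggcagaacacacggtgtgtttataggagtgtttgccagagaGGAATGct
Abca8a: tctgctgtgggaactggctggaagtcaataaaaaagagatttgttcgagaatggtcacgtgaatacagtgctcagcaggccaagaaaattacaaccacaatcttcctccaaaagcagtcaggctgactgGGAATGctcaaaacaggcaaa
Abcd3: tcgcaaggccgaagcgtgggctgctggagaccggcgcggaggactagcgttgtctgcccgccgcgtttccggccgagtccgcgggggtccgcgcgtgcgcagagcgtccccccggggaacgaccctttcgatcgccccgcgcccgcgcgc
The stretch between Abcg5 and Abcg8 and the one upstream of Abca8a held GGAATG once each, with a GC content of 45.9% and 44.7%. Upstream of Abcd3 the GC content was 76% and the letters did not occur. Over the 250 bases before each start, 8 of the 37 members with an entry in the RefSeq table held GGAATG on either strand, against 14.4% of all 27025 genes in it. The match printed between Abcg5 and Abcg8 counts for both genes, and Abca17 and Abcc12, also among the 8, were not tested. Of the 6 members with an entry that were called the same way in both responses, 3 held it (Abca8a, Abcg5 and Abcg8). Abca2, Abcb10 and Abcd3 did not. The nuclear receptor half-site AGGTCA occurred in 4 of the 37 (15.8% of all genes) and the antioxidant response element core TGACNNNGC in 3 (11.5%); Abcc2 and Abcc10 held both. The last 2 can overlap, since AGGTCA on the other strand opens with the TGAC of the third. A match is a description of letters, not of binding.

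After injury of control hepatocytes, 9 of the 34 tested members fell and 3 rose (edgeR quasi-likelihood test, Benjamini-Hochberg adjusted over all 10780 genes tested). The falls were 26.5% of the tested members, where 12% of all tested genes were called lower; the rises were 8.82%, where 10.5% of all genes were called higher. In the knockouts 11 fell and 3 rose, or 32.4% and 8.82%, where 8.35% and 9.42% of all genes were called lower and higher. The median log2 fold change of the tested members was -0.21 in ctrl and -0.37 in the knockouts, beside 0.03 over all tested genes in each; with library totals in place of TMM, which moved the median of all genes to 0.40 in both, the members' medians turned to 0.18 and 0.02. With library totals 6 members fell and 4 rose in ctrl, and 6 fell and 3 rose in the knockouts. Of all 10780 genes, that scaling called 698 lower and 1974 higher in ctrl. In the knockouts it called 406 lower and 1814 higher. In both genotypes 8 members fell and 1 rose, 3 were called only in ctrl, 5 only in Yap/Taz KO, and 17 in neither. In a bulk library fewer hepatocytes and less RNA per hepatocyte cannot be told apart.

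**Figure D1:**
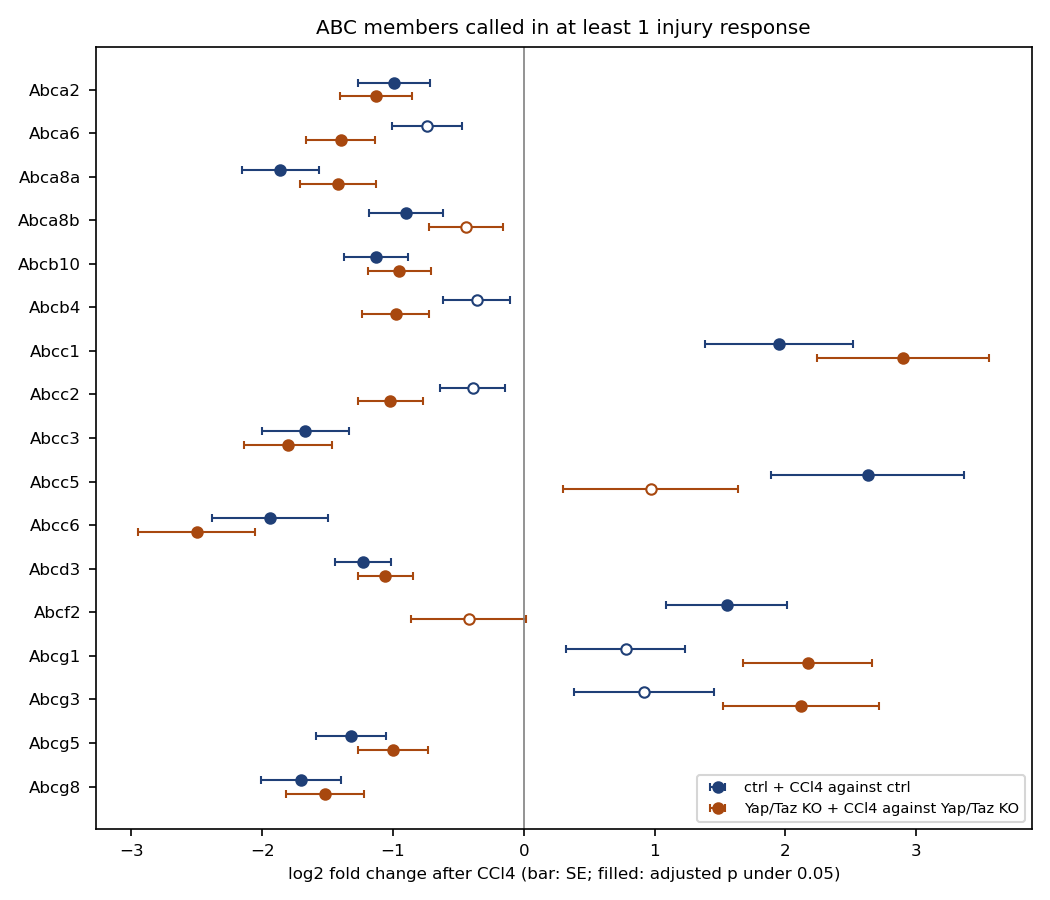
Log2 fold change after CCl4 (horizontal axis, bars are SE) of the 17 members called in at least 1 genotype, for ctrl (blue) and Yap/Taz KO (orange), with filled points past the threshold. Abca2, Abca8a, Abcb10, Abcc3, Abcc6, Abcd3, Abcg5 and Abcg8 are filled on the left and Abcc1 is filled on the right in both genotypes.

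Canalicular exporters were lower after injury for sterols in both genotypes, while those for phospholipid and conjugates passed the test in the knockouts. Of 6 tested members of this list 2 fell in ctrl and 4 in Yap/Taz KO, and none rose. Over all tested genes 12% were called lower in ctrl and 8.35% in the knockouts. Abcg8 stood at 56.8, 51.8 and 56.2 CPM in ctrl and at 15.7, 18.6 and 16.1 in ctrl + CCl4. In Yap/Taz KO it stood at 61.7, 53.6 and 53.2 CPM, and after injury at 16.1, 11.4 and 31.1. All 6 injured libraries lay below all 6 uninjured ones. Its log2 fold change was -1.70 (SE 0.306, adjusted p = 0.00109) in ctrl and -1.52 (SE 0.301, adjusted p = 0.0029) in the knockouts (edgeR), past the threshold in all 21 settings tried in each. Abcg5 stood at 62.5, 90.1 and 73.9 CPM in ctrl against 30.4, 29.3 and 30.9 after injury, and at 48.7, 76.7 and 64.7 against 24.9, 25.6 and 44.3 in the knockouts. The groups did not overlap in either genotype, with log2 fold changes of -1.32 (SE 0.267, edgeR adjusted p = 0.00259) and -1 (SE 0.266, edgeR adjusted p = 0.0168). In the knockouts Abcg5 lost its call without Yap/Taz KO replicate 2 (adjusted p = 0.0796), Yap/Taz KO + CCl4 replicate 1 (0.0873) or replicate 2 (0.0808), and with library totals (0.127).

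Abcc2 (chromosome 19, 43782192 to 43840740) encodes the canalicular pump for glucuronide and glutathione conjugates such as bilirubin glucuronide. It stood at 248, 437 and 259 CPM in ctrl against 193, 302 and 223 in ctrl + CCl4, with overlapping groups. In Yap/Taz KO it stood at 460, 561 and 459 against 221, 277 and 229 after injury, with no overlap. The log2 fold change was -0.39 (SE 0.249, edgeR adjusted p = 0.291) in ctrl and -1.02 (SE 0.25, edgeR adjusted p = 0.0109) in the knockouts, and the difference between these responses did not pass (-0.63, SE 0.351, edgeR adjusted p = 0.647). Abcb4 (chromosome 5, 8893717 to 8959231), the floppase that supplies phosphatidylcholine to bile, followed the same order: 205, 404 and 281 CPM in ctrl, 217, 265 and 212 after injury, 372, 582 and 383 in Yap/Taz KO and 214, 233 and 232 after injury. Its log2 fold change was -0.36 (SE 0.254, edgeR adjusted p = 0.351; 0.01 with library totals) in ctrl and -0.98 (SE 0.255, edgeR adjusted p = 0.0159) in the knockouts, with a difference of -0.62 (SE 0.358, adjusted p = 0.667). Both knockout calls were lost with library totals (Abcc2 adjusted p = 0.0779, Abcb4 0.102) and without Yap/Taz KO + CCl4 replicate 1 (0.057 and 0.0679), and that of Abcb4 also without Yap/Taz KO replicate 2 (0.0915). Of the last 1000 bases of the longest Abcb4 transcript in GENCODE M21, 12.8% of the 50-base words also occur in Abcb1a or Abcb1b, so counting could split some of its reads.

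Abcg2, an exporter of urate, porphyrins and drugs, averaged 40.4 ± 12.1 CPM in ctrl, 34.4 ± 9.41 in ctrl + CCl4, 42.6 ± 6.67 in Yap/Taz KO and 38.6 ± 6.32 in Yap/Taz KO + CCl4 (SD, n = 3 each), with overlapping groups. Abcb1a, one of the 2 mouse genes for P-glycoprotein, averaged 12.6 ± 1.04, 15.2 ± 5.36, 11.0 ± 6.12 and 10.9 ± 1.77 CPM in that order. Neither passed the test in any comparison. Its neighbour Abcb1b failed the filter, with 5, 1 and 0 counts in ctrl, 10, 5 and 25 in ctrl + CCl4, 0, 1 and 1 in Yap/Taz KO and 4, 4 and 11 after injury. It was tested and called higher in ctrl without ctrl replicate 1, and it was not called when the filter was dropped. Since 26.1% of the 50-base words near its 3' end also occur in Abcb1a or Abcb4, its level is uncertain.

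**Figure D2:**
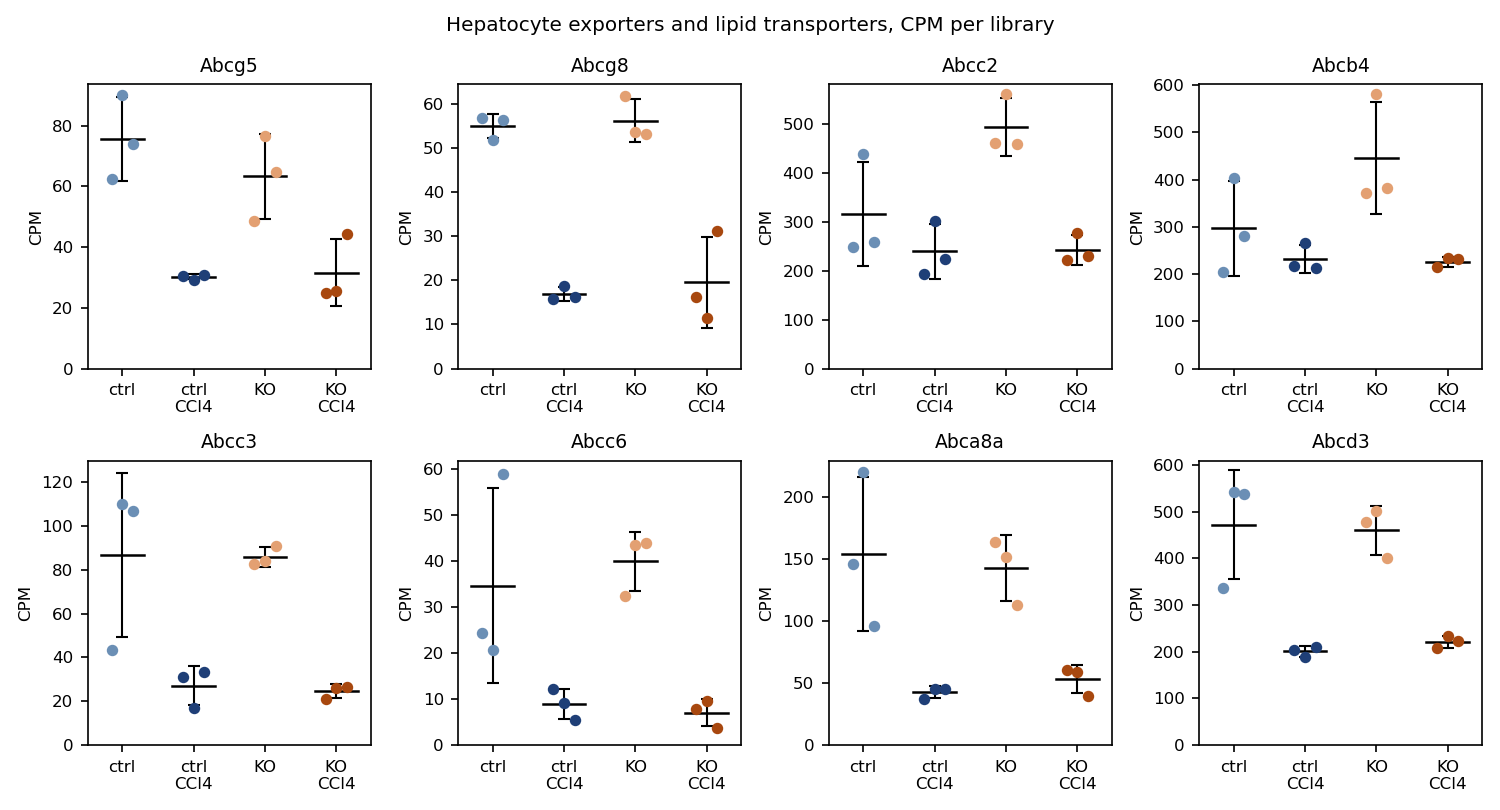
CPM per library (points, with group mean and SD, n = 3) of 8 exporters and lipid transporters in the 4 groups; each vertical axis starts at 0. Abcg5, Abcg8, Abcc3, Abcc6, Abca8a and Abcd3 are lower after CCl4 with no overlap in either genotype, while Abcc2 and Abcb4 overlap in ctrl and part in the knockouts.

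Exporters of the sinusoidal membrane moved in both directions: of 6 tested members 2 fell and 2 rose in ctrl, and 2 fell and 1 rose in the knockouts. Of all tested genes, 12% were called lower and 10.5% higher in ctrl, and 8.35% and 9.42% in the knockouts. Abcc3 (chromosome 11, 94343295 to 94392997), which returns glucuronides and bile acids to blood, stood at 43.6, 110 and 107 CPM in ctrl against 31.1, 16.8 and 33.5 after injury. The knockouts stood at 82.8, 84.0 and 91.1 against 20.8, 26.2 and 26.7. The groups did not overlap, although ctrl replicate 1 lay far below the other controls. The log2 fold changes were -1.67 (SE 0.334, edgeR adjusted p = 0.00237) and -1.80 (SE 0.335, edgeR adjusted p = 0.00182). Abcc6 (chromosome 7, 45967555 to 46030302), whose product drives ATP release and whose loss causes ectopic calcification, stood at 24.3, 20.6 and 59.0 CPM against 12.1, 9.15 and 5.48 in ctrl, and at 32.5, 43.4 and 43.9 against 7.89, 9.48 and 3.77 in the knockouts. Its falls of -1.94 (SE 0.443, edgeR adjusted p = 0.00585) and -2.50 (SE 0.448, edgeR adjusted p = 0.00143) passed in all 21 settings, as did those of Abcc3.

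Abcc1 (chromosome 16, 14361558 to 14475737), an exporter of glutathione conjugates and leukotriene C4 found in many cell types, rose in both genotypes from low levels. Its counts were 13, 4 and 4 in ctrl and 38, 34 and 52 after injury, or 5.35, 2.01 and 2.84 against 13.9, 10.4 and 16.8 CPM. In the knockouts they were 5, 1 and 1 against 32, 33 and 19, or 2.71, 0.483 and 0.426 against 10.1, 10.4 and 5.97 CPM. The groups did not overlap, and the log2 fold changes were 1.95 (SE 0.566, edgeR adjusted p = 0.0219) and 2.90 (SE 0.66, edgeR adjusted p = 0.00716). The rise in the knockouts passed in all 21 settings, that in ctrl in 17. Abcc5, an exporter of cyclic nucleotides, had 10, 0 and 2 counts in ctrl and 21, 42 and 52 in ctrl + CCl4 (4.11, 0 and 1.42 against 7.69, 12.8 and 16.8 CPM). The groups did not overlap, and its response of 2.63 passed the threshold (SE 0.737, edgeR adjusted p = 0.0184). In the knockouts it had 4, 6 and 18 counts against 24, 27 and 30, with overlap on the CPM scale (2.17, 2.90 and 7.67 against 7.58, 8.53 and 9.42), and 0.97 (SE 0.668, edgeR adjusted p = 0.356) did not pass. The difference between its responses did not pass either (-1.66, SE 0.999, edgeR adjusted p = 0.669).

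The 3 members that rose in ctrl had few counts before injury, and their calls changed with the samples fitted. Without ctrl replicate 3 or without ctrl + CCl4 replicate 3, none of Abcc1, Abcc5 and Abcf2 was called. Without ctrl replicate 1, Abcb1b, Abcc4 and Abcg3 were called higher besides these 3. In a fit of the 6 libraries compared only Abcc1 was called. Over all genes, those 4 fits called 832, 763, 1707 and 762 higher, against 1137 in the main fit. The part of low counts in the lost calls was not tested.

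Abca1, which loads cholesterol onto apolipoprotein A-I to start HDL, averaged 112 ± 21.3 CPM in ctrl, 154 ± 8.79 in ctrl + CCl4, 114 ± 19.1 in Yap/Taz KO and 125 ± 30.4 in Yap/Taz KO + CCl4 (SD, n = 3 each). All 3 injured controls (160, 158 and 144 CPM) lay above the uninjured ones (89.3, 131 and 116), but the difference did not pass (edgeR adjusted p = 0.178); with library totals Abca1 was called higher. Abcc4, an exporter of bile acids and cyclic nucleotides, had 40 counts in ctrl replicate 1 and none in the other 2 controls, and 23 to 27 in each injured control. It passed the test without ctrl replicate 1 and not with it. In the knockouts Abcc4 stood at 8.12, 3.86 and 6.39 CPM against 7.89, 8.21 and 5.34 after injury, with overlapping groups.

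Lipid transporters of the Abca5 to Abca8b cluster fell in part. There 5 genes lie side by side on chromosome 11 (109932190 to 110337716). Abca8a stood at 146, 220 and 96.0 CPM in ctrl against 37.0, 45.5 and 45.1 after injury, and at 164, 152 and 113 against 60.6, 59.1 and 39.9 in the knockouts. Both pairs of groups were apart (log2 fold changes -1.86, SE 0.292, edgeR adjusted p = 0.000384, and -1.42, SE 0.287, edgeR adjusted p = 0.00327). Abca8b stood at 55.9, 90.6 and 39.8 CPM against 35.9, 35.7 and 28.7 in ctrl and at 61.7, 61.3 and 58.8 against 42.9, 56.9 and 34.2 in the knockouts. It fell in ctrl by 0.90 on the log2 scale (SE 0.285, edgeR adjusted p = 0.034) and stood at -0.44 (SE 0.281, edgeR adjusted p = 0.317) in the knockouts. The call in ctrl was lost without ctrl replicate 2 (adjusted p = 0.193), without any 1 of the ctrl + CCl4 libraries (0.078, 0.0845 and 0.138), without Yap/Taz KO + CCl4 replicate 1 (0.0555) with library totals (0.187) and in a fit of the 6 libraries compared (0.0844).

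Abca6 in the same cluster stood at 43.2, 68.9 and 36.3 CPM in ctrl and at 97.5, 139 and 86.0 in Yap/Taz KO, so every knockout library was above every control. After injury it stood at 28.6, 33.9 and 26.4 CPM in ctrl + CCl4 and 39.1, 37.6 and 45.5 in Yap/Taz KO + CCl4, again with no overlap. Its injury response was -1.40 (SE 0.265, edgeR adjusted p = 0.0021) in the knockouts and -0.74 (SE 0.269, edgeR adjusted p = 0.0615) in ctrl. In ctrl it was called lower without ctrl replicate 1 (-0.84, adjusted p = 0.0439), without ctrl replicate 3 (-0.91, 0.0356) and with the replicate block (-0.71, 0.0448). The knockout effect before injury was 1.12 (SE 0.266) with edgeR adjusted p = 0.236; DESeq2 (0.0331) and edgeR without the low-count filter (0.0159) called it. Abca9 averaged 5.60 ± 5.50, 7.02 ± 1.97, 7.79 ± 4.74 and 8.09 ± 2.23 CPM over ctrl, ctrl + CCl4, Yap/Taz KO and Yap/Taz KO + CCl4, and Abca5 3.91 ± 3.73, 3.86 ± 1.86, 3.76 ± 1.43 and 2.73 ± 1.2. Neither was called.

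Among transporters of organelles, 1 of 3 tested peroxisomal members, 1 of 3 mitochondrial and 1 of 2 lysosomal ones fell, in both genotypes. Over all tested genes 12% were called lower in ctrl and 8.35% in the knockouts. Abcd3 (chromosome 3, 121758774 to 121815302), the peroxisomal membrane protein that imports branched-chain and bile acid precursor acyl-CoAs, stood at 337, 541 and 537 CPM in ctrl against 203, 188 and 211 after injury. The knockouts stood at 478, 501 and 401 against 207, 234 and 222. All injured libraries lay below all uninjured ones, with log2 fold changes of -1.23 (SE 0.212, edgeR adjusted p = 0.000803) and -1.06 (SE 0.211, edgeR adjusted p = 0.00306). Abcd2, a peroxisomal relative that carries fatty acyl-CoAs, averaged 58.8 ± 18.6, 68.2 ± 8.47, 88.3 ± 27.6 and 77.9 ± 9.31 CPM over ctrl, ctrl + CCl4, Yap/Taz KO and Yap/Taz KO + CCl4 and was not called.

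Abcb10, a transporter of the inner mitochondrial membrane linked to haem synthesis, stood at 30.9, 28.7 and 37.0 CPM in ctrl and 15, 13.1 and 15.8 in ctrl + CCl4. The knockout values were 29.8, 31.8 and 37.5 against 17, 16.1 and 18.2, again apart. It fell by 1.13 (SE 0.243, edgeR adjusted p = 0.00388) and 0.95 (SE 0.239, edgeR adjusted p = 0.0129) in log2 units, with no call in either genotype with library totals (0.0562 and 0.135). The knockout call was also lost without the low-count filter (0.0593) and without Yap/Taz KO replicate 3 (0.0541), or when replicate 1 or 2 of its injured group was left out (0.0511 each). The last 1000 bases of Abcb10 overlap 2 predicted genes on the other strand, and the sources used here do not say whether counting used strand. Abcb8, a half-transporter of the same membrane, averaged 12.6 ± 2.28, 10.6 ± 1.69, 11.9 ± 1.70 and 15.8 ± 5.28 CPM over ctrl, ctrl + CCl4, Yap/Taz KO and Yap/Taz KO + CCl4 and was not called.

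Abca2, a sterol transporter of lysosomes and late endosomes, stood at 47.7, 32.2 and 37.0 CPM against 14.7, 22.3 and 21.9 in ctrl and at 32.5, 33.3 and 46.4 against 20.8, 14.5 and 16 in the knockouts. It fell by 0.99 (SE 0.275, edgeR adjusted p = 0.0179) and 1.13 (SE 0.276, edgeR adjusted p = 0.0111) in log2 units, with no overlap. Library totals ended both calls (0.145 and 0.085). In ctrl the call was lost without ctrl replicate 1 (0.057) or ctrl + CCl4 replicate 1 (0.0881), and in the knockouts without Yap/Taz KO replicate 3 (0.0566) or replicate 2 of the injured group (0.0556). Of the other lysosomal members, Abcd4, which moves vitamin B12 out of the lysosome, averaged 5.60 ± 3.50, 3.13 ± 0.888, 5.00 ± 3.77 and 2.73 ± 1.43 CPM over ctrl, ctrl + CCl4, Yap/Taz KO and Yap/Taz KO + CCl4 and was not called, and Abcb9, a peptide transporter, failed the filter with 3, 13, 27 and 21 counts summed over those groups.

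Abcg1 and Abcg3 of subfamily G rose in the knockouts, and macrophage markers were higher in the same libraries. Abcg1, which exports cholesterol to HDL and is known for its role in macrophages, stood at 18.1, 15.6 and 18.5 CPM in ctrl and 28.6, 18.6 and 42.2 in ctrl + CCl4. In Yap/Taz KO it stood at 14.6, 2.41 and 4.26 CPM (27, 5 and 10 counts) and after injury at 37.2, 32.2 and 24.2. The groups did not overlap in either genotype, but only the knockout response of 2.17 passed (SE 0.493, edgeR adjusted p = 0.00711), against 0.78 (SE 0.455, edgeR adjusted p = 0.253) in ctrl. The difference between the responses was 1.39 (SE 0.667, edgeR adjusted p = 0.619). Abcg3, a rodent relative of Abcg2, stood at 17.3, 3.02 and 6.40 CPM in ctrl and 12.5, 19.5 and 20.0 after injury, and at 5.96, 1.45 and 2.56 against 14.8, 16.4 and 11.6 in the knockouts. It rose by 2.12 (SE 0.598, edgeR adjusted p = 0.0236) in the knockouts, a call lost without Yap/Taz KO replicate 2 (0.104) or 3 (0.0842), or replicate 1 (0.0639) or 2 (0.0718) of the injured group. In ctrl its response was 0.92 (SE 0.534, edgeR adjusted p = 0.249), and 1.92 (0.0167) without ctrl replicate 1. The 10 macrophage markers summed to 1000, 217 and 505 CPM in Yap/Taz KO and 2750, 1950 and 1800 in Yap/Taz KO + CCl4, and 4 of 10 rose; in ctrl they summed to 2430, 441 and 574 and, after injury, to 3040, 2310 and 4010, with 3 of 10 rising. Monocyte and neutrophil markers summed to 7.24 to 23.8 CPM in Yap/Taz KO and 169 to 242 after injury, where all 7 tested of 8 rose, and to 23.7 to 113 in ctrl and 195 to 335 after injury, where 4 of the 7 rose. Over all tested genes 9.42% were called higher in the knockouts and 10.5% in ctrl. Over the ctrl libraries Abcg1 stayed at 18.1, 15.6 and 18.5 CPM while the macrophage markers summed to 2430, 441 and 574. Abcg3 was highest in the first of these libraries, at 17.3 CPM against 3.02 and 6.40. The part of these cells in the levels of Abcg1, Abcg3, Abcc1 and Abcc5 was not tested.

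**Figure D3:**
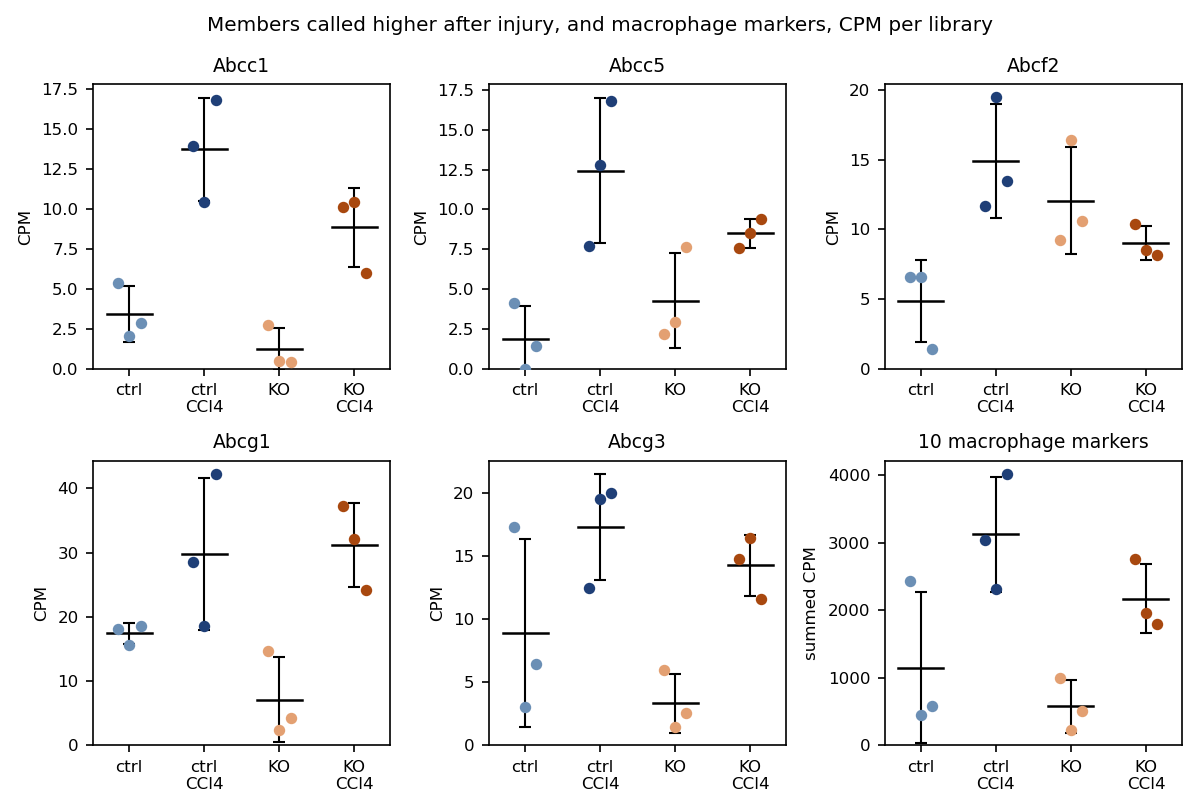
CPM per library (points, with group mean and SD, n = 3) of the 5 members called higher after CCl4 in at least 1 genotype, and the summed CPM of 10 macrophage markers; each vertical axis starts at 0. Library ctrl replicate 1, the leftmost ctrl point in each panel, is high for Abcg3 (17.3 CPM) and for the markers (2430 CPM). It does not stand apart for Abcg1 (18.1 CPM, beside 15.6 and 18.5 in the other controls).

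Abcc9, the regulatory subunit of a potassium channel known from pericytes and muscle, was at 69.1, 27.2 and 35.5 CPM in ctrl, 30.0, 36.0 and 39.6 in ctrl + CCl4, 33.0, 14.5 and 25.6 in Yap/Taz KO and 47.4, 45.5 and 19.5 in Yap/Taz KO + CCl4. The groups overlapped in every comparison and none passed. The 9 stellate and mesenchymal markers summed to 279 to 1190 CPM in ctrl, 945 to 1750 in ctrl + CCl4, 247 to 780 in Yap/Taz KO and 1450 to 1600 in Yap/Taz KO + CCl4, and their part in Abcc9 was not tested.

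Of the 4 members without a membrane domain, 1 was called, higher in ctrl, where 10.5% of all tested genes were called higher. Abcf2 (chromosome 5, 24565345 to 24577467) stood at 6.58, 6.54 and 1.42 CPM in ctrl (16, 13 and 2 counts) and 11.7, 19.5 and 13.5 in ctrl + CCl4, with no overlap. In Yap/Taz KO it stood at 9.21, 16.4 and 10.6 CPM and after injury at 10.4, 8.53 and 8.16, with overlap. The response was 1.55 (SE 0.466, edgeR adjusted p = 0.0263) in ctrl and -0.42 (SE 0.439, edgeR adjusted p = 0.565) in the knockouts. Its difference of -1.97 between the responses had the smallest unadjusted p of the members (SE 0.64, unadjusted p = 0.00781) and did not pass (edgeR adjusted p = 0.533; 0.259 to 0.923 over the settings). Abce1, which splits ribosomes for recycling, averaged 34.2 ± 8.97, 43.7 ± 9.37, 43.0 ± 10.9 and 51.2 ± 9.31 CPM over ctrl, ctrl + CCl4, Yap/Taz KO and Yap/Taz KO + CCl4. Abcf1, which acts in translation initiation, averaged 107 ± 31.3, 130 ± 13.3, 114 ± 17 and 99.7 ± 1.07, and Abcf3 18.8 ± 6.67, 16.2 ± 1.71, 19.6 ± 2.06 and 14.1 ± 4.43. None of these 3 was called.

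Summed by subfamily over all 49 members, the levels of A, B, C, D and G were lower on average after injury in both genotypes (with library totals not B in ctrl nor G in the knockouts), and those of E and F were not lower in both. These sums are given as a description, with no test. They follow their most counted member: Abcb4 held 79.4% of the counts of subfamily B, Abcc2 70.6% of C, Abcd3 74.7% of D and Abcf1 80.4% of F, while in A (Abca1, 35.3%) and G (Abcg5, 30.2%) none held most. Subfamily D went from 566 ± 97.3 to 295 ± 16.3 CPM in ctrl and from 585 ± 80.7 to 327 ± 15.9 in the knockouts (SD, n = 3), log2 ratios of -0.94 and -0.84. Subfamily C went from 493 ± 95.6 to 348 ± 48.9 and from 657 ± 48.2 to 338 ± 43.4 CPM (-0.50 and -0.96). Subfamily B went from 374 ± 99.8 to 300 ± 34.9 and from 530 ± 114 to 297 ± 20.6 CPM (-0.32, and 0.05 with library totals, and -0.83), with overlapping libraries in ctrl. Subfamily A went from 433 ± 118 to 298 ± 15.7 and from 483 ± 39.0 to 300 ± 47.9 CPM (-0.54 and -0.69). Subfamily G went from 197 ± 12.7 to 129 ± 21.2 and from 173 ± 7.54 to 135 ± 18.5 CPM (-0.62 and -0.35, the latter 0.02 with library totals). For E the log2 ratios were 0.35 and 0.25, and for F 0.31 and -0.25 (0.11 with library totals); the libraries overlapped except those of F in the knockouts, at 132 to 166 CPM before and 118 to 127 after injury.

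**Figure D4:**
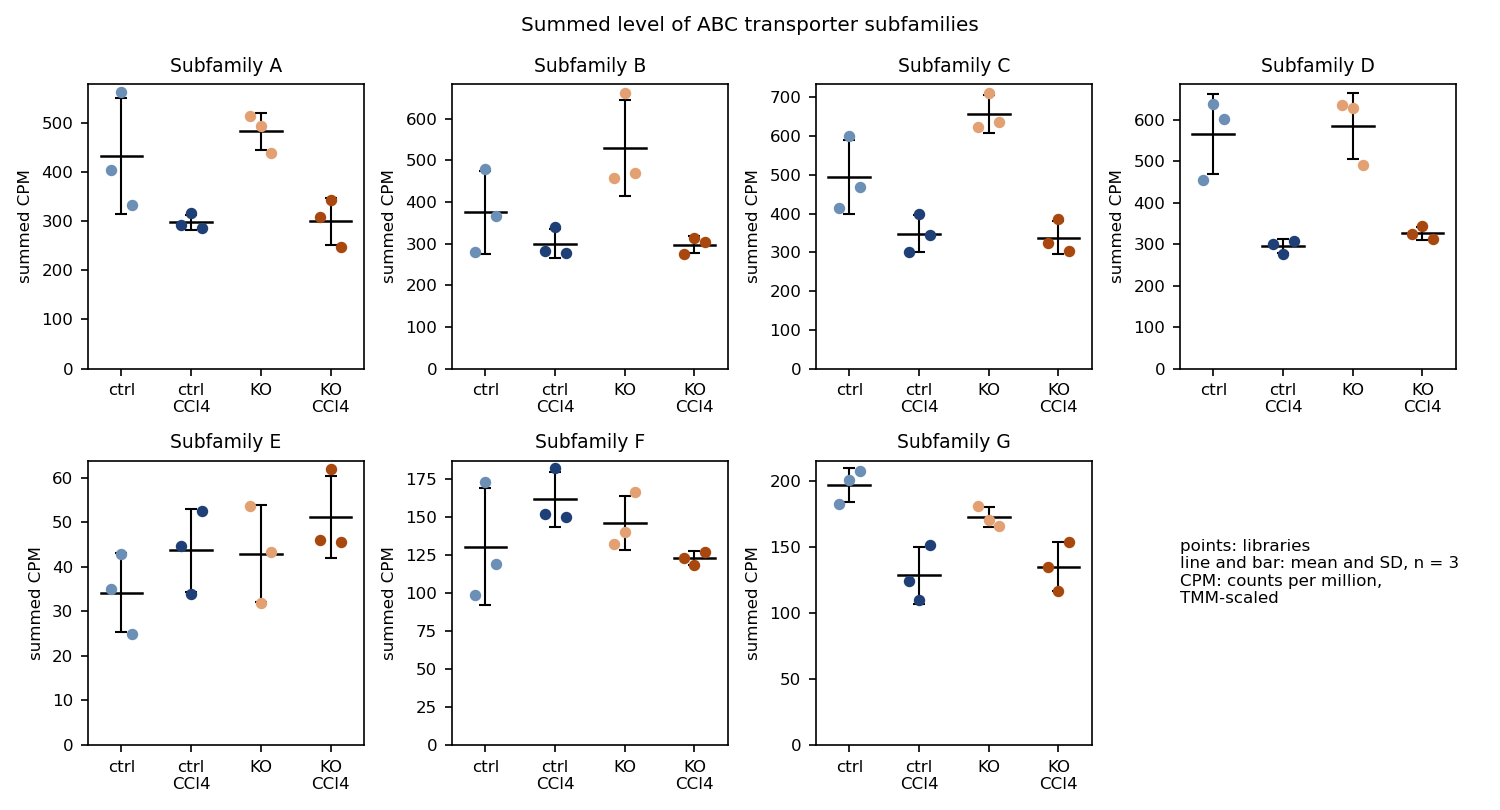
Summed CPM per library (points, with group mean and SD, n = 3) of each ABC subfamily in the 4 groups; each vertical axis starts at 0. In subfamily D all 6 injured libraries (277 to 343 CPM) lie below all 6 uninjured ones (455 to 639 CPM).

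Without injury, no member passed in Yap/Taz KO against ctrl, nor did any of the 10780 genes (0% called; edgeR). At an unadjusted p under 0.05 there were 8 members of 34, and 1020 of all genes. Abca6 (log2 fold change 1.12), Abcf2 (1.25), Abcc2 (0.65), Abca3 (1.66) and Abcb4 (0.59) were on the higher side, and Abcg1 (-1.32), Abcg3 (-1.48) and Abcc1 (-1.57) on the lower. DESeq2 called 23 genes higher and 20 lower, and edgeR without the low-count filter 75 and 135, with Abca6 the single member in each. For Abcc2 the knockout libraries (460, 561 and 459 CPM) lay above the controls (248, 437 and 259), at edgeR adjusted p = 0.458. For Abcg1 they (14.6, 2.41 and 4.26) lay below the controls (18.1, 15.6 and 18.5), at edgeR adjusted p = 0.46, with macrophage markers at 217 to 1000 CPM in the knockouts and 441 to 2430 in ctrl. Abca3, a phospholipid transporter, had 6, 2 and 3 counts in ctrl and 15, 12 and 10 in Yap/Taz KO.

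After injury the 2 genotypes gave no called member (0% of all genes called; edgeR), and 0 of 34 members against 613 of all genes had an unadjusted p under 0.05. EdgeR without the low-count filter called 87 genes higher and 22 lower, and DESeq2 13 and 4, none of them a member; it gave no adjusted p for 13 members. The injured means of Abcc2 were 239 ± 56.2 and 243 ± 30.2 CPM in ctrl + CCl4 and Yap/Taz KO + CCl4, those of Abcb4 231 ± 29.5 and 227 ± 10.6, and those of Abcd3 201 ± 11.6 and 221 ± 13.9 (SD, n = 3 each). For the difference between the injury responses no member and no gene was called by edgeR (0%), with 2 members and 874 genes at an unadjusted p under 0.05; EdgeR without the low-count filter called 100 genes higher and 15 lower, and DESeq2 9 and 3, again without a member. Members called in 1 genotype alone are therefore not shown to respond differently.

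Of a list of 8 solute carriers, most of which take up bile acids and drugs from blood, 5 fell in each genotype and none rose (median log2 fold change -1.58 and -1.18). The share called lower over all tested genes was 12% in ctrl and 8.35% in the knockouts. Slco1b2, an organic anion carrier, averaged 3350 ± 1010 CPM in ctrl and 596 ± 57.8 in ctrl + CCl4 with a log2 fold change of -2.49 (SE 0.26, edgeR adjusted p = 1.52e-05), and 3200 ± 593 and 1060 ± 186 in the knockouts (-1.59, SE 0.252, edgeR adjusted p = 0.000581). Slc10a1, the sodium-dependent bile acid carrier NTCP, fell by 2.23 (SE 0.294, edgeR adjusted p = 9.21e-05) and 1.54 (SE 0.287, edgeR adjusted p = 0.00191) in log2 units. Slco2b1 also fell in both genotypes, as did Slc47a1, which is not an uptake carrier but exports organic cations into bile, and Slco1b2, Slc10a1 and Slco2b1 passed in all 21 settings in both.

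Among 11 nuclear receptors and other regulators of ABC genes, 5 fell and 1 rose in ctrl, and 4 fell in the knockouts. Beside them, 12% of all tested genes were called lower and 10.5% higher in ctrl, and 8.35% and 9.42% in the knockouts. Nr1h4, the bile acid receptor FXR, fell by 1.49 (SE 0.303, edgeR adjusted p = 0.00259) and 0.99 (SE 0.295, edgeR adjusted p = 0.0307), and Nr1i2, the xenobiotic receptor PXR, by 1.06 (SE 0.249, edgeR adjusted p = 0.00689) and 1.03 (SE 0.243, edgeR adjusted p = 0.00898), as log2 fold changes. Hnf4a, Nr0b2 and Rxra fell in ctrl, and Ppara in the knockouts. Nfe2l2, which encodes the oxidative stress factor NRF2, rose in ctrl by 0.97 (SE 0.217, edgeR adjusted p = 0.00514), from 108 ± 10.2 to 211 ± 27.9 CPM. With library totals the falls of Nr1i2 (adjusted p = 0.0762 in ctrl and 0.0889 in the knockouts), Nr1h4 in the knockouts (0.147), Hnf4a (0.227), Nr0b2 (0.0731) and Rxra (0.149) were not called. Some of these calls were also lost when 1 sample was left out, and that of Nr0b2 with voom (0.104). In ctrl the call held in 13 of 21 settings for Nr0b2, 15 for Hnf4a and 15 for Rxra. That of Nr1h4 in the knockouts held in 16. Among 8 tested anchors and partners of the canaliculus 2 rose in ctrl (Ezr and Msn), and 3 rose (Ezr, Msn and Rab11a) and 1 fell (Rdx, the radixin that anchors Abcc2) in the knockouts. Ezr rose by 1.38 (SE 0.439, edgeR adjusted p = 0.0347) and 2.18 (SE 0.466, edgeR adjusted p = 0.00477). Without ctrl replicate 2 or 3 neither Ezr (adjusted p = 0.11 and 0.0582) nor Msn (0.0536 and 0.0622) was called in ctrl, and Ezr was also lost there without ctrl + CCl4 replicate 1 (0.095) or 3 (0.0912). In the knockouts Msn was lost without Yap/Taz KO replicate 2 (0.0825) or injured replicate 1 (0.0846) or 2 (0.0611). The call of Rdx held in 13 and that of Rab11a in 11 of 21 settings. Of the ABC proteins with other names, Tap1 and Tap2 were the 2 tested of 3 with Cftr, and neither was called.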

How the data were processed

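Polyadenylated RNA was made into QuantSeq 3' FWD libraries (Lexogen kit), a method that counts 3' ends of transcripts, per the labels' protocols. The authors' deposited table holds raw counts per gene symbol, unscaled as the values show. The submitters' processing notes name FastQC, cutadapt, STAR (2.6.1d) and, as builds, mm10 and GRCm38, without roles; for the counter, annotation and molecular identifiers: not given in the sources used here. The test was edgeR's (4.0.16, under R 4.3.3): filterByExpr (minimum count 10, minimum total 15; 10780 of 37141 genes kept), TMM scaling (factors 0.776 to 1.31), 1 coefficient per group over all 12 samples, quasi-likelihood F test, Benjamini-Hochberg adjustment at 0.05. SE is the log2 fold change over the root of F. CPM use TMM-scaled totals of the kept genes. Samples of a group differed by more than sampling noise (chi-square over its degrees of freedom, 8.56 to 26.6); nothing says that they are separate animals, so p-values measure only how these samples vary, possibly for technical reasons. The pipeline was tested on simulated data. The rule named every member past the threshold, every list with its counts, and values of uncalled members of the canalicular, sinusoidal, mitochondrial and peroxisomal lists; Abca3, Abca5, Abca9, Abcb1b, Abcb9, Abcc9, Abcd4, Abce1, Abcf1 and Abcf3, and the values of partner genes, were added after being seen. The members and lists were chosen with earlier results of these data known. Positions are from GENCODE M21 (GRCm38), where all 49 symbols were found, and promoters from RefSeq (GRCm38.p6), with 37 members. The alternatives were RLE factors, library totals, a replicate block, DESeq2 1.42.0, voom from limma 3.58.1, no low-count filter, a stricter one (5 CPM or more in 3 samples), fits of 6 samples, and each sample left out once: with the values reported, 21 settings. Values of some genes on the lists are not reported here.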

Additional observations from a re-analysis of the deposited data

How the results depend on the processing

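The count of members that rose in ctrl was 3, 1 in a fit of the 6 samples compared and 0 to 6 when 1 sample was left out (0 without ctrl replicate 3 or ctrl + CCl4 replicate 3, 6 without ctrl replicate 1). Genes called higher there numbered 1137 in the main fit, 762 in the fit of 6 samples and 763 to 1707 with 1 sample left out. Falls in the knockouts numbered 11, 6 with library totals and 7 to 11 when 1 sample was left out, 7 without Yap/Taz KO + CCl4 replicate 1. Over all genes 900 were called lower in the main fit, 406 with library totals and 516 without that library. Falls in ctrl numbered 9, and 7 to 10 when 1 sample was left out; rises in the knockouts numbered 3, or 2 to 3. For Yap/Taz KO against ctrl 1 member was called with no low-count filter and 1 with DESeq2, Abca6 in both. With library totals the log2 ratios of the subfamily sums in ctrl and in the knockouts were -0.17 and -0.31 for A, 0.05 and -0.45 for B, -0.13 and -0.58 for C, -0.55 and -0.46 for D, 0.74 and 0.62 for E, 0.68 and 0.11 for F and -0.22 and 0.02 for G; Abcb4 in ctrl went from -0.36 to 0.01 and the members' medians turned to 0.18 in ctrl and 0.02 in the knockouts. These shifts follow from the scaling itself, which moved the median of all genes from 0.03 to 0.40 in both injury responses. Deviations of same-numbered samples correlated at -0.15 to 0.32, with 4 of 12 pairs over 0.1. The highest were replicates 1 (0.32) and 2 (0.24) of ctrl and Yap/Taz KO. With 3 samples a group these values cannot settle whether the numbers pair the samples, and the main fit did not pair them. With the replicate block the counts were 3 higher and 10 lower in ctrl, 3 higher and 11 lower in the knockouts, and 0 in the other comparisons. Abca6 in ctrl then passed (-0.71, edgeR adjusted p = 0.0448). In 4 of the 12 pairs the first sample correlated best with its own number in the second group. Abcc1, Abcc5, Abcf2 and Abcg3 had fewer than 10 counts in some uninjured libraries, so their fold changes rest on few counts there.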
